A study of Mus musculus with 15 samples.

Results

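Histone acetylation is set by acetyltransferases, which add acetyl groups to lysines of histone tails, and by histone deacetylases, which remove them. Trrap is a large adaptor that joins some acetyltransferases to DNA-bound factors, namely Kat2a and Kat2b in the SAGA and PCAF complexes and Kat5 in the TIP60 complex. The 10 genes described here are the writers that work without Trrap and the main erasers: the coactivator acetyltransferases Crebbp (CBP) and Ep300 (p300), the MYST family enzymes Kat6a (MOZ), Kat6b (MORF), Kat7 (HBO1) and Kat8 (MOF), the class I deacetylases Hdac1, Hdac2 and Hdac3, and the class IIa deacetylase Hdac9. They comprise 6 acetyltransferases and 4 deacetylases of the 53801 genes in the count table. They were chosen by name, and all 10 had enough reads to be tested in each comparison. The question asked of them is how the RNA of these enzymes stands in neural stem cells in which Trrap is removed.

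The cells were adult neural stem cells (aNSCs), dividing cells taken from the subventricular zone of C57BL6/J-129sv mice at an age of 2 months. All mice carried the Rosa26-CreERT2 transgene, in which a Cre recombinase that needs 4-hydroxytamoxifen (4-OHT) is expressed from a widely active locus. 5 cultures of Trrap Fl/+ mice (1 floxed allele) were left untreated, 5 cultures of the same mice (numbers 19, 24, 26, 35 and 36) received 4-OHT, and 5 cultures of Trrap Fl/Fl mice (numbers 27, 28, 29, 37 and 39) received 4-OHT, with 5 days given in the labels, while the study's methods describe a shorter exposure followed by drug-free medium. The Fl/+ 4-OHT controls therefore carry an allele that can be deleted as well. By label, 3 cultures of each group were male and 2 were female.

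Depth ranged from 25.7 M to 32.2 M assigned counts over the 15 libraries. The targeted gene was measured first. Trrap stood at 193, 214, 184, 179 and 181 CPM (counts scaled to a common library size) in untreated cultures, at 138, 204, 171, 165 and 142 CPM after 4-OHT in Fl/+ cultures, and at 92.9, 115, 142, 89.2 and 82.8 CPM in Fl/Fl cultures. 4 of 5 Fl/Fl libraries lay below every Fl/+ 4-OHT library, while the library labelled Fl/Fl 29 lay among them. Trrap fell by 0.64 on the log2 scale between these groups (edgeR adjusted p = 0.0115), and by 0.79 without the library labelled Fl/Fl 29 (adjusted p = 0.0029). The count covers all exons of Trrap, inside and outside the floxed segment. The library labelled Fl/Fl 39 is given as female but had 9 Xist counts and Y-linked genes at the level of the male libraries, and both cultures of mouse 36, labelled male, had Xist counts (160 and 2117) beside Y-linked genes. Results are therefore also given without mice 29, 36 and 39. All 10 neural stem cell, 8 neuronal and 7 astrocyte markers examined were detected in every group. So were the oligodendrocyte lineage markers, except Mog with at most 3 counts in each untreated library. The microglial genes Aif1, Cx3cr1, Tmem119 and Ptprc and the endothelial genes Cdh5 and Cldn5 had at most 3 counts in any library. Kdr, of the same endothelial and pericyte list, had means of 4.67 CPM untreated, 5.93 CPM in Fl/+ 4-OHT and 5.94 CPM in Fl/Fl 4-OHT cultures.

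Crebbp, Ep300 and Hdac2 are the members with lower RNA after Trrap deletion, and the stretches before their RefSeq transcription starts are shown here so that the letters can be read. Entries of the RefSeq promoter table (GRCm38.p6) were examined for 7 of the 10 members, read here as the 250 bases before each RefSeq start. Hdac1, Hdac3 and Kat6a were not examined. The stretches of Crebbp, Ep300 and Kat6b lie inside the gene spans of the GENCODE annotation, which begin further upstream, and that of Hdac2 lies directly before its span. The letters searched were GGGCGG on either strand (CCGCCC on the printed strand), the GC box that factors of the Sp family bind, with overlapping matches counted separately. 5 of the 7 genes, and 7 of their 10 entries, held at least 1 match, as did 32.7% of the 32851 promoter entries in the table. Capitals mark the matches, and the strand printed is that of the gene, 5′ to 3′. Kat6b is added as the member with the most matches among those examined.
Crebbp (chr16:4213405-4213654, minus strand): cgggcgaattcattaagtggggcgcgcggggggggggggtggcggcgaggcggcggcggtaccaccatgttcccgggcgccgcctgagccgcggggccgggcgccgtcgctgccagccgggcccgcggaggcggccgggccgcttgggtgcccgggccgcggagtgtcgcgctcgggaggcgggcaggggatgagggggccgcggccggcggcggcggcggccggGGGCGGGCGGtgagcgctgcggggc
Ep300 (chr15:81585964-81586213, plus strand): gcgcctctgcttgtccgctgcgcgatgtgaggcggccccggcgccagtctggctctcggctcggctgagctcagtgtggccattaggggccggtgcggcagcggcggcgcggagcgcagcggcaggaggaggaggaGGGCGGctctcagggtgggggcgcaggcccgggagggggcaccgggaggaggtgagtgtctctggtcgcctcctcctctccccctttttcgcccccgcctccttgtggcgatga
Hdac2 (chr10:36974294-36974543, plus strand): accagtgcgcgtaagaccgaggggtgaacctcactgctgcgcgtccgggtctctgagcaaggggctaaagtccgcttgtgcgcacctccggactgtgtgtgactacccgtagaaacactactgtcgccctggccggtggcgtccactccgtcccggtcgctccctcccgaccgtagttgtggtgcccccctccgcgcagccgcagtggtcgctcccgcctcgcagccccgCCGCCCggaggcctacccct
Kat6b (chr14:21499520-21499769, plus strand): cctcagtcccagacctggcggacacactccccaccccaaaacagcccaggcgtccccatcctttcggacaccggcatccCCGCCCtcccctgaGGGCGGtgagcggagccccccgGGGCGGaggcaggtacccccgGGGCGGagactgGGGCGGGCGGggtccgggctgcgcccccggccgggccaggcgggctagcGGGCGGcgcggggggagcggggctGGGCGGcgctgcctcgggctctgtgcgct

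The Crebbp stretch held 2 overlapping matches, those of Ep300 and Hdac2 held 1 each, and that of Kat6b held 8. Both Kat8 entries held 1 match, while the Kat7 entry and both Hdac9 entries held none. The 3 members with lower RNA thus all had a match, and so did Kat6b and Kat8, which did not pass the test in any comparison. These stretches were rich in G and C, at 84.0% for Crebbp, 73.2% for Ep300, 68.8% for Hdac2 and 78.8% for Kat6b, beside a median of 52.4% over all promoters.

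The members differed widely in RNA level. Levels between genes are compared per kilobase of merged exons in untreated Fl/+ cultures (mean ± SD, n = 5). Hdac2, the catalytic subunit shared by the SIN3, NuRD and CoREST corepressor complexes, was the most abundant member at 55.8 ± 3.23 CPM per kb. Hdac3, the enzyme of the NCoR complexes, followed at 38.5 ± 2.08 CPM per kb, and these neighbours did not overlap. Kat6a stood at 26.6 ± 5.39 and Kat7, the enzyme of the HBO1 complexes, at 22.2 ± 1.40 CPM per kb, with overlapping ranges. A second tier held Kat8, the enzyme of the MSL and NSL complexes, at 9.21 ± 1.11, Ep300 at 7.91 ± 0.43, Crebbp at 6.66 ± 0.94, Hdac1 at 4.57 ± 1.51 and Kat6b at 4.50 ± 0.71 CPM per kb. Within it every gene overlapped its neighbour in the order. Hdac9, which binds Mef2 transcription factors, was lowest at 1.41 ± 0.37 CPM per kb, so that the highest mean was 39.5 times the lowest. The order depends on the length used: per kilobase of the longest transcript Kat6b stood at 9.83, above Crebbp at 8.33 and Hdac1 at 7.72, and Kat7 at 34.5 stood above Kat6a at 26.8 CPM per kb.

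**Figure D1:**
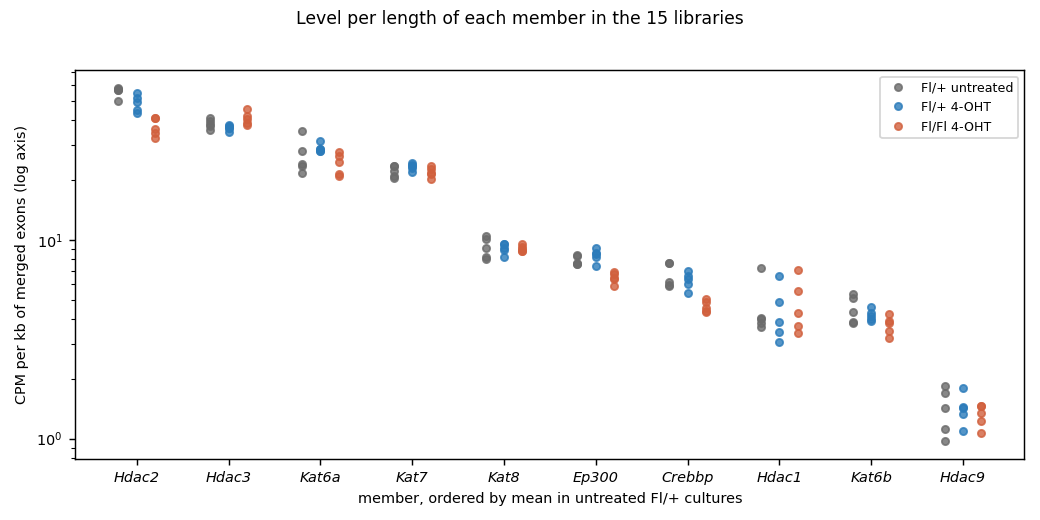
Level of each member per kilobase of merged exons (CPM per kb, log axis) in the 15 libraries, one point per library and one colour per group. Hdac2 and Hdac3 stand above the other members within each group, and Hdac9 stands lowest at 1.41 CPM per kb in untreated cultures. In Fl/Fl cultures Hdac2 spans 32.45 to 40.97 CPM per kb, which reaches below the 38.01 to 45.76 CPM per kb of Hdac3.

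After Trrap deletion, read as Fl/Fl against Fl/+ when both received 4-OHT, 3 of the 10 members fell and none rose (adjusted p under 0.05 over 15036 genes, edgeR's quasi-likelihood test with Benjamini-Hochberg adjustment). Crebbp fell by 25.1%, Hdac2 by 23.4% and Ep300 by 21.7%, with log2 changes of -0.42, -0.38 and -0.35. Of all genes tested, 31.7% passed in either direction and 15% were lower. 3 of 10 is thus close to the share of all genes that changed, and the count by itself sets the members apart from no other genes. The median log2 change of the 10 members was -0.13, beside 0.02 over all genes tested.

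Crebbp and Ep300 are paralogous coactivators that bind many transcription factors, CREB among them. Crebbp (chr16:4081328-4213997, minus strand) measured 81.6, 94.8, 85.7, 89.4 and 73.2 CPM in Fl/+ 4-OHT cultures and 61.6, 68.6, 66.3, 59.0 and 59.4 CPM in Fl/Fl cultures. The highest Fl/Fl library lay below the lowest control library (log2 change -0.42 ± 0.08 SE, edgeR adjusted p = 0.00348). Ep300 (chr15:81585351-81652077, plus strand) measured 117, 130, 121, 123 and 105 CPM in Fl/+ 4-OHT cultures and 84.0, 98.6, 91.2, 96.4 and 91.4 CPM in Fl/Fl cultures. These groups did not overlap either (log2 change -0.35 ± 0.07 SE, edgeR adjusted p = 0.00416).

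Hdac2 was the deacetylase that fell. Hdac2 (chr10:36974544-37001889, plus strand) measured 231, 195, 202, 221 and 245 CPM in Fl/+ 4-OHT cultures and 183, 155, 162, 145 and 183 CPM in Fl/Fl cultures. The groups did not overlap (log2 change -0.38 ± 0.09 SE, edgeR adjusted p = 0.00809). The library labelled Fl/Fl 29, whose Trrap level lay in the control range, was below every control for each of these 3 genes. Without mice 29, 36 and 39 the log2 changes were -0.48 for Crebbp, -0.40 for Ep300 and -0.39 for Hdac2, and edgeR's adjusted p was 0.0145, 0.0223 and 0.0472.

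Kat6a stood nearest the threshold among the members that did not pass. It measured 259, 288, 257, 265 and 263 CPM in Fl/+ 4-OHT cultures and 228, 254, 198, 194 and 242 CPM in Fl/Fl cultures. All 5 Fl/Fl libraries lay below all controls, with a log2 change of -0.24 ± 0.09 SE and an edgeR adjusted p of 0.051. With DESeq2's Wald test the adjusted p was 0.0256, which adds Kat6a to the called members. Without mice 29, 36 and 39 the log2 difference was -0.25 (edgeR adjusted p = 0.153), and with a dispersion shared by all libraries it was also -0.25 (adjusted p = 0.125). Hdac3 lay the other way, at 153, 142, 149, 155 and 149 CPM in controls and 158, 165, 171, 154 and 186 CPM in Fl/Fl cultures. 4 of 5 Fl/Fl libraries were above every control (log2 difference 0.17 ± 0.07 SE, edgeR adjusted p = 0.0629). Scaled by library size alone, Hdac3 passed as higher (log2 0.21, edgeR adjusted p = 0.0427). Without mice 29, 36 and 39 the Hdac3 difference was 0.09 (edgeR adjusted p = 0.432).

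The other 5 members gave no difference past the threshold. Kat6b had a log2 difference of -0.16 ± 0.09 SE (edgeR adjusted p = 0.192), with 4 of 5 Fl/Fl libraries below every control. Kat7 had a difference of -0.07 ± 0.06, Kat8 of 0.02 ± 0.07 and Hdac9 of -0.10 ± 0.14 (log2 ± SE), with edgeR adjusted p of 0.428, 0.852 and 0.598. Kat8 was the steadiest member among the cultures labelled Fl/Fl, with a coefficient of variation of 3.49% in Fl/Fl libraries. The exact two-sided permutation test gave p = 0.00794 for each of Crebbp, Ep300, Kat6a and Hdac2, the smallest that 5 against 5 libraries can give. Groups in which every Fl/Fl library lay below every control made up 11.4% of all genes tested.

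Markers of other cells moved in the same comparison. The summed level of 8 neuronal markers was 899 to 1100 CPM in Fl/+ 4-OHT cultures and 669 to 857 CPM in Fl/Fl cultures, with 2 of 8 called lower. Map2 made up most of this sum, with means of 798 of 975 CPM and 684 of 778 CPM. It was not called (edgeR adjusted p = 0.192). The summed level of 10 neural stem cell markers was 7516 to 9631 CPM and 5776 to 9906 CPM, with 4 of 10 called lower. None of the 7 astrocyte markers (5427 to 7000 CPM against 4910 to 8851 CPM) and none of the 10 oligodendrocyte lineage markers was called by edgeR. The 4 ependymal markers summed to 38.8 to 92.2 CPM and 70.2 to 98.4 CPM, with none of 3 tested called, and the 6 endothelial and pericyte markers summed to 5.13 to 10.04 CPM over all libraries, with none of 3 called. The 6 microglial markers summed to 0.12 to 0.51 CPM in Fl/+ 4-OHT and 0.69 to 2.01 CPM in Fl/Fl cultures, which did not overlap, with 4 of 6 at no more than 3 counts in any library and the 1 tested not called. The part of these cells in the results on Crebbp, Ep300 and Hdac2 was not tested, and in bulk cultures fewer cells of a type and less RNA per cell cannot be told apart.

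**Figure D2:**
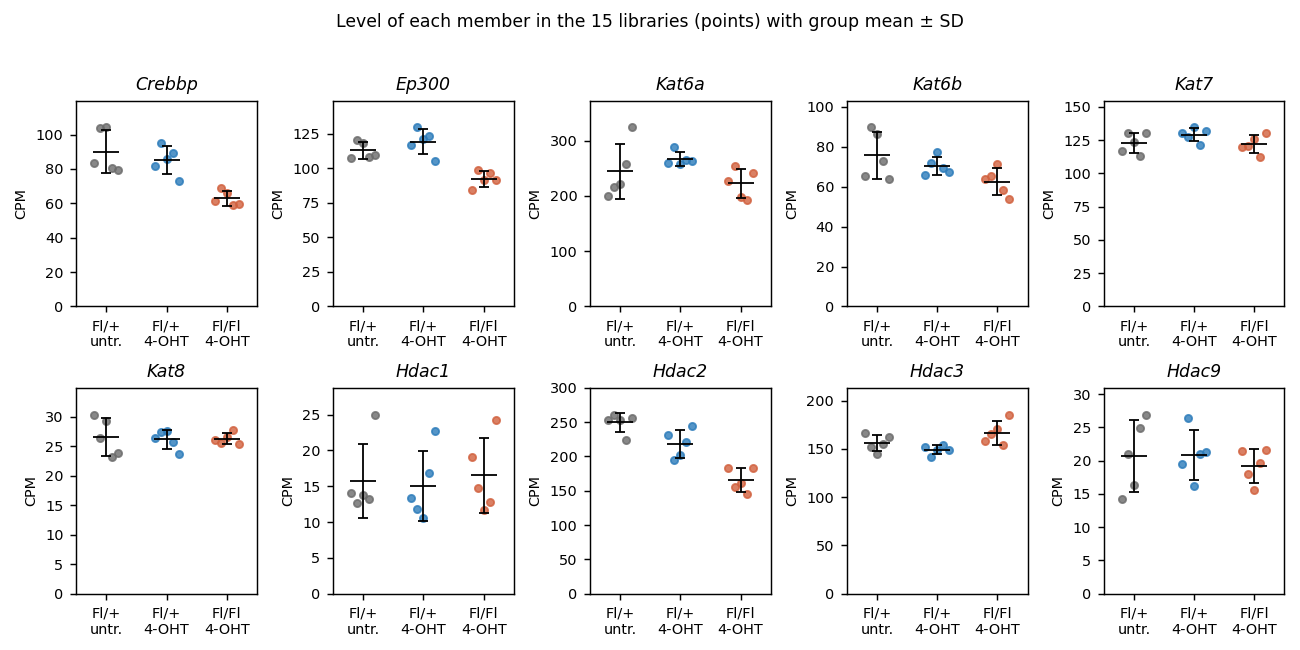
CPM of each of the 10 members (linear axes from 0) by group, one point per culture, with black bars for the group mean and SD (n = 5). For Crebbp, Ep300, Kat6a and Hdac2 all 5 Fl/Fl 4-OHT points lie below all 5 Fl/+ 4-OHT points, and for Hdac1 single cultures in each group reach 22.7 to 25 CPM.

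The comparison of Fl/+ cultures with and without 4-OHT shows how the members stood with the drug and the loss of up to 1 Trrap allele. None of the 10 members passed edgeR's test among 14821 genes, of which 13.8% passed. 1 member had an unadjusted p under 0.05, and DESeq2 called 0. Hdac2 was that member, at 253, 261, 253, 224 and 256 CPM untreated and 231, 195, 202, 221 and 245 CPM with 4-OHT in the same order of mice. It was lower after 4-OHT in 5 of 5 mice (log2 difference -0.19 ± 0.08 SE, edgeR adjusted p = 0.163). The exact sign-flip test over the mice gave 0.0625, the smallest p that 5 pairs allow. With the mouse number as a block, 0 members passed, while 3809 genes were called in place of 2044. The edgeR adjusted p of Hdac2 was then 0.122.

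The other log2 differences after 4-OHT ran from -0.10 for Kat6b to 0.13 for Kat6a. Kat6a was widely spread in untreated cultures, from 200.3 CPM in mouse 19 to 324 CPM in mouse 36, and lay within 257 to 288 CPM after 4-OHT. Its mouse 36 culture was the only one of 5 that was lower after 4-OHT. Crebbp was likewise spread before treatment, with 104 CPM in mice 24 and 26 against 79.2 to 83.2 CPM in the other 3 mice. The summed level of the oligodendrocyte lineage markers was 3462 to 4511 CPM untreated and 3371 to 4658 CPM after 4-OHT, and 6 of 10 of these markers were called higher. Of the neural stem cell markers 3 were lower and 1 higher, of the astrocyte markers 3 were lower and 1 higher, 1 of 2 tested ependymal markers was lower, and no neuronal marker was called. The part of these cells in the Hdac2 values was not tested.

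Against untreated Fl/+ cultures, the Fl/Fl 4-OHT cultures showed the same 3 members lower and none higher. 30.7% of 15032 genes passed here and 15.1% were lower. This comparison shares its Fl/Fl libraries with the deletion comparison and its untreated libraries with the 4-OHT comparison. Hdac2 fell by 33.0% (log2 -0.58 ± 0.09 SE, edgeR adjusted p = 0.000868), Crebbp by 29.5% (log2 -0.50 ± 0.10, adjusted p = 0.00372) and Ep300 by 17.5% (log2 -0.28 ± 0.07, adjusted p = 0.012). For Hdac2 the group means stepped from 250 ± 14.5 CPM untreated to 219 ± 20.6 CPM in Fl/+ 4-OHT and 166 ± 17.1 CPM in Fl/Fl 4-OHT cultures (SD, n = 5). Ep300 lost its call when libraries were scaled by size alone (log2 -0.19, adjusted p = 0.0643) and without mice 29, 36 and 39 (log2 -0.28, adjusted p = 0.0811).

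Markers moved here as well, with 5 of 8 neuronal markers lower (894 to 1185 CPM untreated in sum), 5 of 10 neural stem cell markers lower, 6 oligodendrocyte lineage markers higher and 1 lower, 3 astrocyte markers lower and 1 higher, 2 ependymal markers higher and 1 endothelial or pericyte marker higher. Their part in the values of Hdac2, Crebbp and Ep300 was not tested.

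The remaining 7 members gave log2 differences between -0.26 for Kat6b and 0.11 for Hdac3 against untreated cultures. Kat6b had an edgeR adjusted p of 0.116, and its lowest level was 53.9 CPM in the library labelled Fl/Fl 39. Kat7 and Kat8 lay at 0.00 and -0.01 on the log2 scale, with SE of 0.07 and 0.10. The group means, in the order untreated, Fl/+ 4-OHT and Fl/Fl 4-OHT, were 123, 129 and 122 CPM for Kat7 and 26.6, 26.2 and 26.3 CPM for Kat8.

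**Figure D3:**
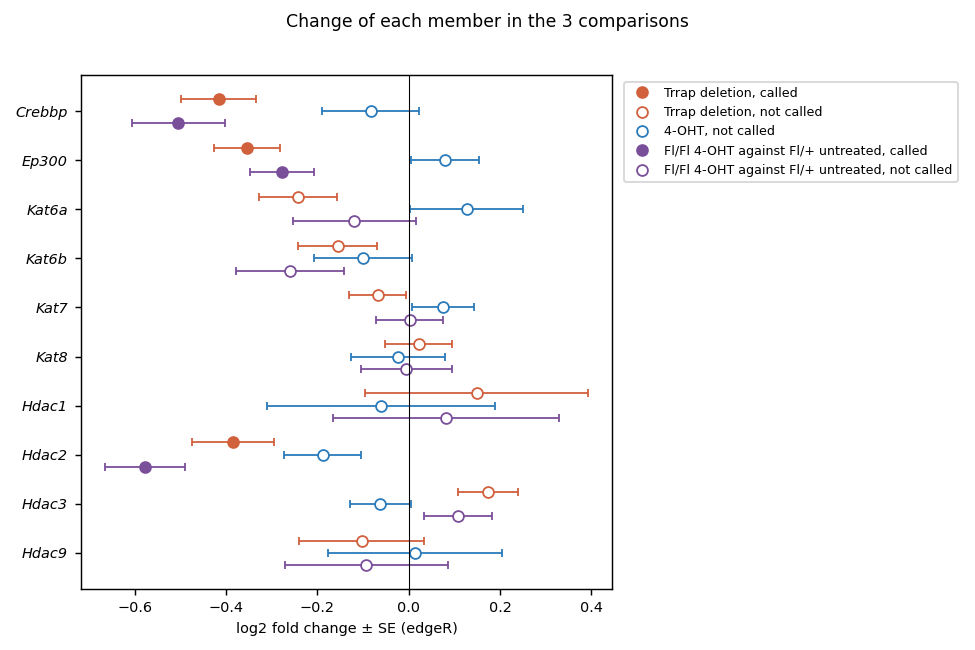
Log2 fold change of each member with its standard error (edgeR, 5 against 5 libraries) in the 3 comparisons, with filled points for an adjusted p under 0.05. Filled points lie at -0.42, -0.35 and -0.38 for Crebbp, Ep300 and Hdac2 after Trrap deletion, no point is filled for 4-OHT, and Hdac2 reaches -0.58 against untreated cultures.

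Hdac1, the close paralog of Hdac2, was low and uneven. It measured 14, 12.6, 13.8, 13.2 and 25 CPM in untreated cultures, 13.4, 11.8, 10.5, 16.9 and 22.7 CPM in Fl/+ 4-OHT cultures and 19.1, 14.7, 11.7, 12.8 and 24.3 CPM in Fl/Fl cultures. The high libraries were both cultures of mouse 36 and the library labelled Fl/Fl 39, in every group 1 of 5. The log2 difference after deletion was 0.15 ± 0.24 SE (edgeR adjusted p = 0.675), and -0.04 without the library labelled Fl/Fl 39. Over 19 alternatives it ran from -0.08 to 0.32, with 0 calls. Hdac1 (chr4:129516104-129542713) cannot be counted with the same certainty as the others, because only uniquely placed reads were counted. Of its 51-base windows, the length of the reads, 35.2% also occur in other annotated genes, and for its longest transcript the share is 58.5%. The other 9 members share 0% to 4.23% of their windows.

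Most of the shared Hdac1 windows (1116) lie in the processed pseudogene Gm10093, and 149 lie in Gm4864, the copies with the most shared windows among those in the count table. In the 3 libraries with high Hdac1, Gm10093 stood at 5.12, 4.27 and 4.62 CPM and Gm4864 at 2.25, 2.19 and 2.36 CPM. The other 12 libraries had 2.80 to 8.0 CPM of Gm10093 and 1.99 to 3.85 CPM of Gm4864. The sum of all 3 genes was 32.4, 29.1 and 31.3 CPM in the high libraries and 17.5 to 27.1 CPM in the others, so the high libraries stay high with the pseudogenes added. The part of misplaced reads in the Hdac1 level was not tested.

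Ratios of paralogs within a library do not depend on scaling. The log2 ratio of Hdac2 to Hdac1 counts was 4.04 ± 0.39 in untreated, 3.91 ± 0.33 in Fl/+ 4-OHT and 3.38 ± 0.32 in Fl/Fl 4-OHT cultures (SD, n = 5). It differed by -0.54 after deletion (exact permutation p = 0.0476, adjusted p = 0.107). The log2 ratio of Ep300 to Crebbp was 0.33 ± 0.13, 0.49 ± 0.03 and 0.55 ± 0.11 in the same order. Both coactivators fell after deletion, and their ratio differed by 0.06 (exact permutation p = 0.302, adjusted p = 0.452). After 4-OHT it was higher by 0.16 in 5 of 5 mice (exact permutation p = 0.0238, adjusted p = 0.0952). The log2 ratio of Kat6b to Kat6a was -1.68 ± 0.43, -1.92 ± 0.11 and -1.83 ± 0.26, and the smallest adjusted p among its comparisons was 0.452. Over the 9 tests, 4 had an exact p under 0.05 and 0 had an adjusted p under 0.05. Without the untreated culture of mouse 36, 3 of them passed in exact permutation tests: Hdac2 to Hdac1 against untreated cultures (-0.83, adjusted p = 0.0476) and Ep300 to Crebbp after 4-OHT (0.19, adjusted p = 0.0357) and against untreated cultures (0.25, adjusted p = 0.0357). These tests do not pair the mice. The exact sign-flip test over the 5 mice gave p = 0.0625 for Ep300 to Crebbp after 4-OHT, the smallest that 5 pairs allow.

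**Figure D4:**
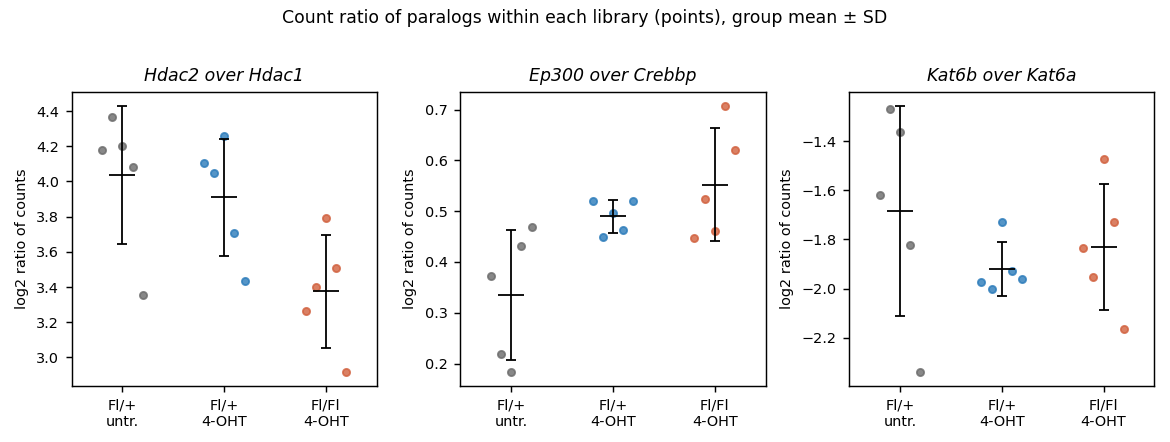
Log2 ratio of counts within each library for Hdac2 over Hdac1, Ep300 over Crebbp and Kat6b over Kat6a, by group, with the mean and SD of 5 cultures. The Hdac2 to Hdac1 ratio has means of 4.04, 3.91 and 3.38, with the mouse 36 and Fl/Fl 39 cultures lowest in their groups, and the groups overlap for each pair.

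Hdac2 had the widest range of group means among the members (0.59 on the log2 scale), ahead of Crebbp with 0.51. The genes whose pattern lay nearest to it were sought among the 13332 genes whose mean reached 1 CPM, by the root mean square difference in centred log2(CPM + 0.5) over the 15 libraries. They were Wtap, a partner of the RNA methylation enzymes (difference 0.07), Set, a histone chaperone and phosphatase inhibitor (0.08), Ppp2r2d, a regulatory subunit of a protein phosphatase (0.08), Cacybp, a calcyclin-binding protein (0.09), and Paics, an enzyme of purine synthesis (0.09). Group means of Set were 49.5, 45.5 and 31.9 CPM, and those of Paics 306, 265 and 208 CPM, in the order untreated, Fl/+ 4-OHT and Fl/Fl 4-OHT. The points share libraries and the same scaling, and the likeness is a description.

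The genes next to the called members were read as well. Trap1 lies 3501 bases from Crebbp and had a log2 difference of 0.16 ± 0.08 SE after deletion (edgeR adjusted p = 0.14), and Adcy9 on the other side had -0.16 ± 0.16 (adjusted p = 0.498). Beside Ep300, Rbx1 rose by 0.28 ± 0.06 on the log2 scale after deletion (edgeR adjusted p = 0.00708), fell by 0.28 after 4-OHT (adjusted p = 0.0228) and had 0.00 against untreated cultures (adjusted p = 0.974), and L3mbtl2 had 0.14 ± 0.09 (adjusted p = 0.244). After deletion no neighbour of Crebbp or Ep300 was called lower. Marcks, 131486 bases from Hdac2, fell by 0.70 on the log2 scale after deletion (edgeR adjusted p = 0.000952) and by 0.84 after 4-OHT (adjusted p = 0.00288). Hs3st5, on the other side of Hdac2, had a median of 3 counts and was not tested.

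The Trrap-dependent enzymes are given for comparison. After deletion Kat2b rose by 0.27 ± 0.08 on the log2 scale (edgeR adjusted p = 0.029), a call lost without mice 29, 36 and 39 (log2 0.30, adjusted p = 0.096), while Kat2a (0.17 ± 0.08, adjusted p = 0.129) and Kat5 (0.19 ± 0.07, adjusted p = 0.0526) did not pass. With library size alone as the scaling Kat5 passed as higher (log2 0.22, adjusted p = 0.0344). Against untreated cultures Kat2a rose by 0.37 and Kat2b by 0.40 (adjusted p = 0.0046 and 0.00378), and Kat5 had -0.09 ± 0.11 (adjusted p = 0.563). After 4-OHT Kat2a had 0.21 ± 0.06 SE (adjusted p = 0.0518), which passed with library size alone (log2 0.26, adjusted p = 0.0207). Kat5 had -0.28 ± 0.11 SE (adjusted p = 0.109), and with the mouse number as a block it passed as lower (log2 -0.26, adjusted p = 0.0479).

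Partner genes, other acetyltransferases and deacetylases, acetyl-lysine readers and acetyl-CoA supply genes were read from 13 lists with 99 genes, of which 98 were tested. After deletion 29 were lower, 13 higher and 56 were not called, so that 42 of 98 passed beside 31.7% of all genes. Their median log2 change was -0.10, beside 0.02 over all genes. Without mice 29, 36 and 39 the counts were 17 lower and 4 higher, while 2384 of all genes were called in place of 4773. After 4-OHT 4 were lower and 6 higher, and against untreated cultures 24 were lower and 10 higher. The 10 of 98 and 34 of 98 stand beside 13.8% and 30.7% of all genes. With the mouse number as a block 11 list genes were lower and 9 higher after 4-OHT, while 3809 genes were called in place of 2044. With library size alone as the scaling the splits were 22 lower and 15 higher after deletion and 3 lower and 8 higher after 4-OHT. Against untreated cultures 14 were lower and 15 higher in that setting. Over all genes the share of higher calls moved from 52.8% to 59.3% after deletion. It moved from 53.2% to 66.2% after 4-OHT and from 51% to 66.3% against untreated cultures.

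Partners of CBP and p300 had 4 of 9 tested genes lower and 1 higher after deletion, and 2 lower and 1 higher with library size alone. Ncoa2, a nuclear receptor coactivator, fell by 0.69 on the log2 scale (edgeR adjusted p = 0.000136), and Creb1, the factor whose phosphorylated form binds CBP, fell by 0.55 (adjusted p = 0.00392). Crtc1, a CREB coactivator, rose by 0.47 (adjusted p = 0.0032). Ncoa3 rose by 0.55 after 4-OHT (adjusted p = 0.00232). With the mouse number as a block 2 of these partners were higher after 4-OHT and 1 lower, namely Crtc1 (log2 -0.23, adjusted p = 0.0318). Against untreated cultures 3 of 9 were lower, including Ncoa1 by 0.26 (adjusted p = 0.042), which lost its call with library size alone (log2 -0.17, adjusted p = 0.183). In that setting 2 partners were lower and 2 higher. The higher ones were Crtc1 (log2 0.33, adjusted p = 0.0197) and Ncoa3 (log2 0.35, adjusted p = 0.0218).

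Subunits of the MOZ/MORF and HBO1 complexes had 3 of 9 lower and 1 higher after deletion, and 1 lower and none higher without mice 29, 36 and 39. Jade1, a scaffold of the HBO1 complex, fell by 0.91 (edgeR adjusted p = 0.000553), Jade3 by 0.58 (adjusted p = 0.0193) and Brd1, a scaffold shared by Kat6a, Kat6b and Kat7, by 0.25 (adjusted p = 0.00771). Jade2, the third Jade paralog, rose by 1.30 after 4-OHT (adjusted p = 0.00276) and had -0.15 ± 0.23 after deletion. The enzyme Kat7 was not called in any comparison. In the MSL and NSL complexes of Kat8, 5 of 11 were lower and 1 higher after deletion (3 lower without mice 29, 36 and 39), with Hcfc1 down by 0.46 (adjusted p = 0.00195), Phf20 by 0.38 (adjusted p = 0.00525) and Wdr5, which is shared with other complexes, by 0.27 (adjusted p = 0.00884). Phf20 rose by 0.52 after 4-OHT (adjusted p = 0.00627). Kansl2 was lower by 0.31 against untreated cultures (adjusted p = 0.0385), a call lost with library size alone (log2 -0.22, adjusted p = 0.147).

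The complexes that hold Hdac1 and Hdac2 gave mixed counts after deletion. CoREST had 5 of 8 lower and none higher, but 3 with library size alone, where Rcor1 (adjusted p = 0.0857) and Hmg20b (adjusted p = 0.0611) lost their calls, and 2 without mice 29, 36 and 39. Its called genes included Rcor2, down by 0.94 (edgeR adjusted p = 0.00341), the demethylase Kdm1a by 0.32 (adjusted p = 0.00284) and the neuronal gene repressor Rest by 0.30 (adjusted p = 0.0359). In the same list Rcor1 rose by 0.47 after 4-OHT (adjusted p = 0.0127). Against untreated cultures Hmg20b was lower by 0.52 (adjusted p = 0.0162). SIN3 had 3 of 13 lower and 2 higher (2 lower and none higher without those mice), with Sap30 down by 0.96 (adjusted p = 0.000195), Ing1 down by 0.66 (adjusted p = 0.00143) and Sap18 up by 0.39 (adjusted p = 0.0173). Sap18 fell by 0.50 after 4-OHT (adjusted p = 0.0171), and with the mouse number as a block 2 of the SIN3 genes were lower. Arid4b was lower by 0.32 against untreated cultures (adjusted p = 0.0279), but not called with library size alone (log2 -0.23, adjusted p = 0.105). NuRD had 3 of 12 lower and 1 higher, with Gatad2b down by 0.33 (adjusted p = 0.00412), the remodeler Chd4 down by 0.29 (adjusted p = 0.00677) and Mta3 up by 0.42 (adjusted p = 0.00257). Mta2 was lower by 0.37 and Mbd2 higher by 0.35 against untreated cultures (adjusted p = 0.0105 and 0.0173).

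The NCoR complexes, which hold Hdac3, had 2 of 5 lower and 1 higher after deletion, and 2 lower and none higher without mice 29, 36 and 39. The corepressor Ncor1 fell by 0.58 (edgeR adjusted p = 0.000463). Tbl1x, a subunit of the same complexes, fell by 0.52 (adjusted p = 0.00027). Ncor1 rose by 0.36 after 4-OHT (adjusted p = 0.0106), and with the mouse number as a block 1 gene of the list was higher and 1 lower. Tbl1xr1, the paralog of Tbl1x, was lower by 0.43 against untreated cultures (adjusted p = 0.011). Of the Mef2 factors that class IIa deacetylases bind, Mef2c fell by 0.65 (adjusted p = 0.0366), 1 of 4 after deletion and none without mice 29, 36 and 39. Mef2d rose by 0.29 after 4-OHT (adjusted p = 0.0334) but was not called without mouse 36, and Mef2a was lower by 0.28 against untreated cultures (adjusted p = 0.0468), a call lost with library size alone (log2 -0.19, adjusted p = 0.129).

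Of the deacetylases outside the 4 members, 4 of 14 were called after deletion, close to the 31.7% of all genes. 2 of 7 other zinc-dependent enzymes rose and none fell, namely Hdac11 by 0.82 (edgeR adjusted p = 0.00363) and Hdac8 by 0.34 (adjusted p = 0.044). 2 of 7 sirtuins, which use NAD, rose and none fell, namely Sirt2 by 0.87 (adjusted p = 0.012) and Sirt4 by 0.53 (adjusted p = 0.019). Without mice 29, 36 and 39, 1 of these zinc-dependent enzymes and no sirtuin was called. After 4-OHT Hdac8 fell by 0.58 and Hdac7 by 0.42 (adjusted p = 0.0182 and 0.0246), and no sirtuin was called. With the mouse number as a block 3 zinc-dependent enzymes were lower, Hdac11 being the added one (log2 -0.36, adjusted p = 0.0287), and 1 sirtuin was lower. Sirt1 was lower by 0.47 against untreated cultures (adjusted p = 0.0437), but not called with library size alone (log2 -0.38, adjusted p = 0.0926). Of 6 other acetyltransferases, Kat2b included, 1 rose after deletion, 3 with library size alone and none without mice 29, 36 and 39. Naa60 fell by 0.26 after 4-OHT (adjusted p = 0.0299), a call lost with library size alone (log2 -0.21, adjusted p = 0.0791) and without mouse 36.

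Readers and supply were also counted. Of the BET proteins, which bind acetylated lysines, Brd3 fell by 0.46 after deletion (edgeR adjusted p = 0.000473) and Brdt rose by 0.54 (adjusted p = 0.00535), 1 of 4 in each direction. Brd2 was lower by 0.44 against untreated cultures (adjusted p = 0.00255). Of the 3 genes that supply nuclear acetyl-CoA, the citrate lyase Acly fell by 0.76 (adjusted p = 0.000485) and the acetyl-CoA synthetase Acss2 by 0.72 (adjusted p = 0.0185). Leaving out mice 29, 36 and 39 left 1 of the 3 supply genes called lower. After 4-OHT no gene of these lists was called without the block, and with the mouse number as a block 2 of the 3 supply genes rose, Acly among them (log2 0.33, adjusted p = 0.0282), and 1 BET gene, Brd2, fell (log2 -0.28, adjusted p = 0.0286).

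**Figure D5:**
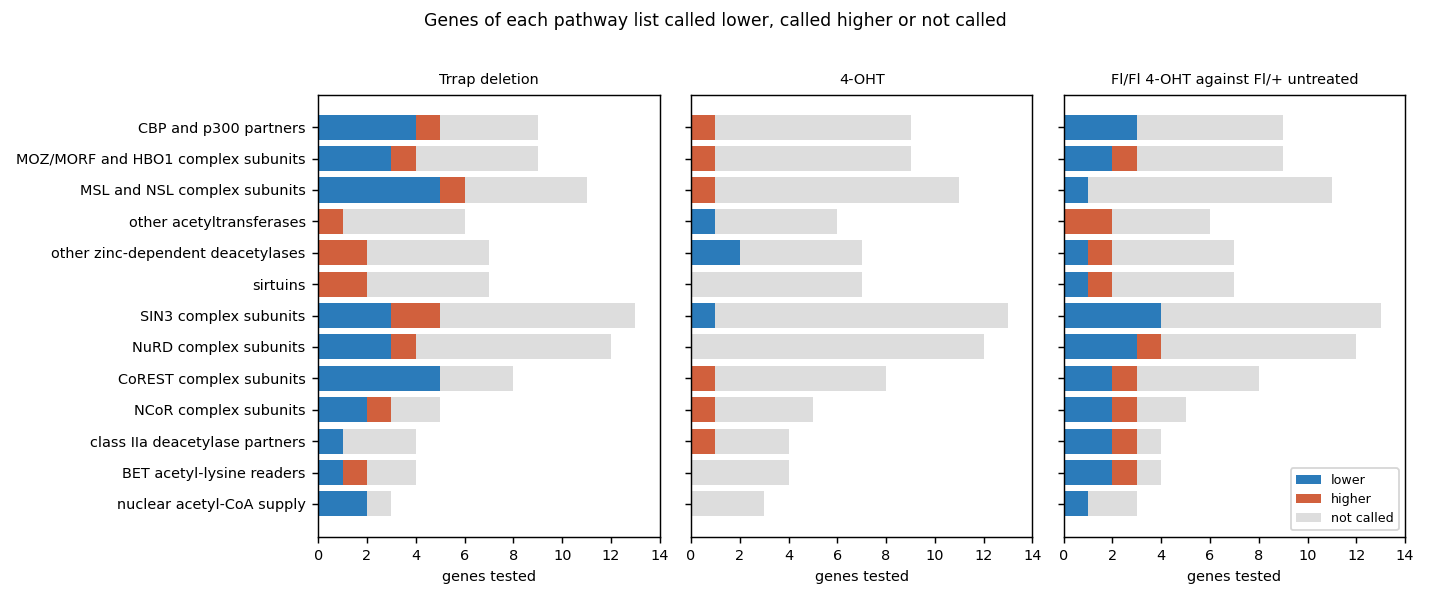
Number of genes in each of the 13 lists called lower, called higher or not called (edgeR, adjusted p under 0.05) in the 3 comparisons, with bar length for the genes tested. After Trrap deletion the CoREST list has 5 of 8 genes lower and none higher (3 with library size alone as the scaling), while the called genes of the other zinc-dependent deacetylases and the sirtuins are higher.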

How the data were processed

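Poly(A) RNA of 15 cultures was sequenced by the authors as 51-base single-end reads from stranded libraries. They mapped it to GRCm38 with STAR 2.5.4b and counted uniquely mapped reads on the annotated strand with featureCounts 1.5.0. The deposited tables hold raw gene-level counts for 53801 genes. Of these IDs, 53620 were found in a GENCODE annotation of the same build. PCR copies were not marked, so floors (3 counts, about 0.105 CPM) cover counting error only. The labels and methods describe the 4-OHT dose differently, so none is given.

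Groups, mouse numbers, sex and days come from the labels. Counts were filtered with filterByExpr (minimum count 10), scaled by TMM and tested without covariates by the quasi-likelihood F test of edgeR 4.0.16 in R 4.3.3. P-values were adjusted by Benjamini-Hochberg over all genes tested and called under 0.05. CPM values use TMM-scaled library sizes of all 15 libraries. Exact two-sided permutation tests used log2(CPM + 0.5), with 252 arrangements for 5 against 5 and 32 sign flips for 5 pairs. Levels per kb used merged exons. The statistics were tested on simulated data. Numbered mice gave separate cultures, and p-values measure the spread between these cultures.

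The members and lists were chosen with earlier results of these data known. Named genes were the members, Trrap, Kat2a, Kat2b and Kat5, up to 3 genes with the smallest adjusted p per list and comparison, the nearest protein-coding gene on each side of each called member, and the 5 genes most like the member with the widest range. Some genes that this rule names are not reported here. Gm10093 and Gm4864, the copies of Hdac1, were added once values had been seen. Marker lists were for neural stem cells, neurons, astrocytes, oligodendrocyte lineage, microglia, endothelium and pericytes, and ependyma.

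The untreated and 4-OHT cultures of Fl/+ animals shared their mice. Deviations of 15435 genes from group means correlated with r of 0.156 to 0.626 between cultures of 1 mouse and of -0.549 to 0.339 between mice. Alternatives were DESeq2 1.42.0, its size factors in edgeR, library size only, no filter, a minimum of 10 counts per library, 1 fit of all 15 libraries, labelled sex as covariate, the mouse number as block and each library left out. Leaving out mice 29, 36 and 39 together, mouse 36 alone, or Fl/Fl 39 with sex as covariate was added after the data had been seen.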

Additional observations from a re-analysis of the deposited data

Results flagged for a closer look

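5 values stood apart from the other 4 libraries of their group, by a gap of over 0.71 of the group's range, among 39 groups of 5 examined. Chance gives such a gap in about 5% of groups. Hdac1 in the untreated culture of mouse 36 was at 25 CPM, with the other 4 at 12.6 to 14 CPM, and the log2 ratio of Hdac2 to Hdac1 there was 3.36, with the others at 4.08 to 4.37. Hdac2 in the untreated culture of mouse 35 was at 224 CPM, below 253 to 261 CPM in the others. Kat6a in the Fl/+ 4-OHT culture of mouse 24 was at 288 CPM, above 257 to 265 CPM. The log2 ratio of Kat6b to Kat6a in the Fl/+ 4-OHT culture of mouse 26 was -1.73, with the others at -2 to -1.93.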

How the results depend on the processing

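Over 570 combinations of member, comparison and alternative, 560 kept their direction and side of the threshold or stayed uncalled, 8 gained a call, 2 lost one and 0 reversed a called direction. Crebbp, Ep300 and Hdac2 were called lower after deletion under all 19 alternatives, with 3 to 4 members called without 1 library. After 4-OHT 0 members were called under any of 19, and against untreated cultures 3 without any 1 library. Kat6a joined the calls after deletion under DESeq2, under DESeq2 size factors, with at least 10 counts in every library, with sex and no Fl/Fl 39, and without Fl/+ 4-OHT 26, Fl/Fl 28 or Fl/Fl 39. Genes called without 1 library numbered 3772 to 4734 after deletion, 1271 (without Fl/+ 4-OHT 19; 1311 without 35) to 2522 after 4-OHT, and 3700 to 4735 against untreated cultures. Without mice 29, 36 and 39 they numbered 2384 after deletion and 2865 against untreated cultures, with 21 and 17 list genes called in place of 42 and 34; fewer samples entered. With the mouse number as replicate block 3809 genes were called after 4-OHT in place of 2044, and 20 list genes (9 higher, 11 lower) in place of 10. Without the untreated culture of mouse 36 the ratio differences passed for Hdac2 to Hdac1 (-0.83) and Ep300 to Crebbp (0.25) against untreated cultures and for Ep300 to Crebbp after 4-OHT (0.19); without 1 library they ranged from -0.83 to -0.55, from 0.18 to 0.25 and from 0.12 to 0.19. Per longest transcript the highest member was 29.5 times the lowest in place of 39.5. The causes were not tested. The SE of the deletion difference was 0.24 for Hdac1, and 0.07 for Kat8.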
